A study of Mus musculus with 9 samples.

Results

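SLAM receptors and SH2 adaptors of T cells were followed across mouse CD4 T cell cultures on 9 Affymetrix Mouse Genome 430 2.0 arrays. The 8 genes were Sh2d1a, Sh2d2a, Slamf1, Slamf6, Slamf7, Ly9, Cd84 and Cd48, taken by their symbols in the platform annotation out of 18193 genes with a named probe set. All 8 were found, with 13 of the 45037 probe sets tested, and the probe set with the highest mean over the 9 arrays stood for each gene. The cells of the pltTGFβ_iTreg and purTGFβ_iTreg groups, 3 arrays each, were induced regulatory T cells (iTreg). They were grown from EGFP-negative spleen CD4+ T cells of Foxp3EGFP mice, which report the transcription factor Foxp3, on the C57BL/6 (B6) background. For 72 hours they were stimulated with plate-bound antibody to CD3 at 2.5 µg/ml, antibody to CD28 at 1 µg/ml and the growth factor IL2 at 100 U/ml. TGFβ came from freeze-thaw lysates of wild type C57BL/6 platelets in pltTGFβ_iTreg and as purified TGFβ1 (5 ng/ml) in purTGFβ_iTreg, which the labels call a positive control. The concentration reached with lysate is not given in the sources used here. The 3 Tconv arrays held conventional T cells of the same strain, and how they were cultured is not settled, since the treatment text repeated for each sample lists TGFβ1 for Tconv as well. The sources used here give neither the age of the mice nor any sort of iTreg cells by EGFP at the end of culture.

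SLAM receptors are immunoglobulin-family proteins on the surface of blood cells, and most of them bind a copy of themselves on the neighbouring cell. Their cytoplasmic tails carry tyrosine motifs that recruit SAP, a small adaptor made almost wholly of an SH2 domain, encoded by Sh2d1a. SAP brings in the kinase Fyn and displaces inhibitory phosphatases. It is known for the help that follicular T cells give to B cells and for the development of NKT cells, and its loss in humans causes X-linked lymphoproliferative disease. Cd48 differs from the other receptors in being held in the membrane by a lipid anchor without a tail. Sh2d2a encodes TSAd, a T cell adaptor with an SH2 domain that binds the kinase Lck and is not part of the SAP family proper.

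Of the 8 genes, 6 are neighbours on chromosome 1, in the order Ly9, Slamf7, Cd48, Slamf1, Cd84 and Slamf6, while Sh2d2a lies on chromosome 3 and Sh2d1a on the X chromosome. The promoters of 5 of them were in the RefSeq table of assembly GRCm38.p6, which gives 250 bases before and 50 after the start. Slamf1 and Slamf7 are shown because both were higher in pltTGFβ_iTreg than in purTGFβ_iTreg, and Cd48 because it lies between them and was not called in that comparison. Capitals mark matches, on either strand, to 4 short motifs, and no matches overlap. The motifs were TGANTCA (AP-1), CAGAC (SMAD), GTAAACA (FOXO) and GGTGTGA (T-box).
Slamf1, chr1:171766882-171767181, plus strand: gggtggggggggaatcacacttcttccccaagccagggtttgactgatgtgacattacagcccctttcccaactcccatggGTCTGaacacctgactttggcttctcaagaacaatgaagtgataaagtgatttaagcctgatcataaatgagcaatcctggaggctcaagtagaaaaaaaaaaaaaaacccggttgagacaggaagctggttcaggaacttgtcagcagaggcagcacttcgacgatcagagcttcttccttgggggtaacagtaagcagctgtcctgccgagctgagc
Slamf7, chr1:171648950-171649249, minus strand: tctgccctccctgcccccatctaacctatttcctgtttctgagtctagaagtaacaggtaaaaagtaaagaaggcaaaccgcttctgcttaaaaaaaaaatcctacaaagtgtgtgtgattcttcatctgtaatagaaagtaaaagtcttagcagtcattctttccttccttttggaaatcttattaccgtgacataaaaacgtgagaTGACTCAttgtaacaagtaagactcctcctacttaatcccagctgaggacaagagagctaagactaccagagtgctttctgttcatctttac
Cd48, chr1:171681742-171682041, plus strand: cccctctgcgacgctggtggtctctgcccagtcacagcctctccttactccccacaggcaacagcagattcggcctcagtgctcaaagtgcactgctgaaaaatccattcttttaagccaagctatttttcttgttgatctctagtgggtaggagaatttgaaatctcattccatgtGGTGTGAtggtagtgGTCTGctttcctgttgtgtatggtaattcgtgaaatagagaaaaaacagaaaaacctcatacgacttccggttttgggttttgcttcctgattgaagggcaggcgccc
The Slamf1 window held 1 SMAD match and the Slamf7 window 1 AP-1 match, its TGACTCA beginning 42 bases before the start. The Cd48 window held 1 SMAD and 1 T-box match. Of the windows not shown, that of Cd84 held 1 AP-1 and 2 SMAD matches and that of Slamf6 no match. Neither gene was called between the iTreg groups. Over all 32851 promoter windows of this length, 49.6% held the SMAD letters, 7.81% the AP-1, 3.65% the FOXO and 3.98% the T-box letters. The 3 windows shown share no AP-1 or T-box match, and the arrays measured no binding there.

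Values are log2 expression after Robust Multichip Analysis (RMA), and a difference is one of group means on that scale. A gene was called where limma gave an adjusted p under 0.1 and the difference exceeded 0.5 in size. The deposited arrays differed in distribution: medians were 4.46 to 4.50 in pltTGFβ_iTreg, 4.47 to 4.49 in purTGFβ_iTreg and 4.52 to 4.56 in Tconv, and upper quartiles 6.86 to 6.91, 6.88 to 6.95 and 6.59 to 6.70 in the same groups. Arrays of 1 group correlated at 0.9935 to 0.9976 over probe sets, pltTGFβ_iTreg with purTGFβ_iTreg at 0.9927 to 0.9946 and iTreg with Tconv at 0.9563 to 0.97. Xist, the RNA of the inactive X chromosome, averaged 3.94 in pltTGFβ_iTreg, 3.61 in purTGFβ_iTreg and 10.81 in Tconv, and Y-linked Eif2s3y averaged 8.95, 9.01 and 2.70 in the same groups. The Tconv arrays thus read as female and the iTreg arrays as male, so sex and group cannot be told apart in any comparison with Tconv, X-linked Sh2d1a included. Foxp3 averaged 3.86 ± 0.04 in pltTGFβ_iTreg, 3.77 ± 0.08 in purTGFβ_iTreg and 3.79 ± 0.12 in Tconv (SD, n = 3 each) and was called in no comparison, so this probe set did not tell iTreg from Tconv arrays. All 9 T cell markers were measured, with list means of 10.46 to 10.52 in pltTGFβ_iTreg, 10.31 to 10.38 in purTGFβ_iTreg and 10.58 to 10.76 in Tconv. Against Tconv, Cd4 (-0.62) and Cd5 (-0.59) were called lower and Cd28 (0.78) higher in pltTGFβ_iTreg. Cd4 (-0.72), Cd5 (-0.84) and Cd247 (-0.65) were called lower in purTGFβ_iTreg, and none of the 9 was called between the iTreg groups. Beside these counts, 28.5% of all genes were called for pltTGFβ_iTreg minus Tconv and 29.3% for purTGFβ_iTreg minus Tconv. For pltTGFβ_iTreg minus purTGFβ_iTreg the share was 4.11%, so no call among 9 genes says little there. The part of the T cell marker shifts in the SLAM results was not tested. In RNA from whole cultures, fewer cells with a transcript and less of it per cell cannot be told apart.

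The comparison of pltTGFβ_iTreg with purTGFβ_iTreg asked how cultures given platelet lysate differ from cultures given purified TGFβ1. The source of TGFβ, its concentration and anything else in the lysate cannot be told apart in it. Sh2d1a, Slamf1 and Slamf7 were higher with lysate, by 2.98-, 2.03- and 2.87-fold, and none of the 8 genes was called lower. Of all genes, 4.11% were called in this comparison (1.54% higher, 2.57% lower). The median difference was 0.31 over the 8 genes and 0.01 over all genes. Few genes moved further than these: 56 of 18193 had a larger absolute difference than Sh2d1a, 63 than Slamf7 and 160 than Slamf1. Cd48 differed by 0.38 (adjusted p = 0.0141), under the size cutoff. Ly9, Cd84, Slamf6 and Sh2d2a were not called (adjusted p = 0.258 to 0.943).

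In pltTGFβ_iTreg against Tconv, which asked how lysate-treated cultures differ from conventional cells, 3 of the 8 genes were called. Sh2d1a (3.99-fold) and Cd48 (3.04-fold) were higher and Slamf6 was 1.86-fold lower. Of all genes 28.5% were called (13.9% higher, 14.7% lower), and the median difference was -0.08 over the 8 genes and -0.16 over all genes. In purTGFβ_iTreg against Tconv, 5 were called. Slamf7 (3.25-fold), Slamf6 (2.18-fold), Slamf1 (1.51-fold) and Cd84 (1.47-fold) were lower, and Cd48 was 2.34-fold higher. There 29.3% of all genes were called (14.5% higher, 14.9% lower), with a median of -0.49 over the 8 genes and -0.17 over all genes. Quantile normalization of the deposited values moved the background split to 2180 higher and 3497 lower, against 2521 and 2673, for pltTGFβ_iTreg, and to 2262 and 3591, against 2632 and 2707, for purTGFβ_iTreg. Under it 5 of the 8 genes were called for pltTGFβ_iTreg, as Ly9 and Cd84 passed as lower, and 6 for purTGFβ_iTreg, as Ly9 passed as lower. Both comparisons share the Tconv arrays.

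**Figure D1:**
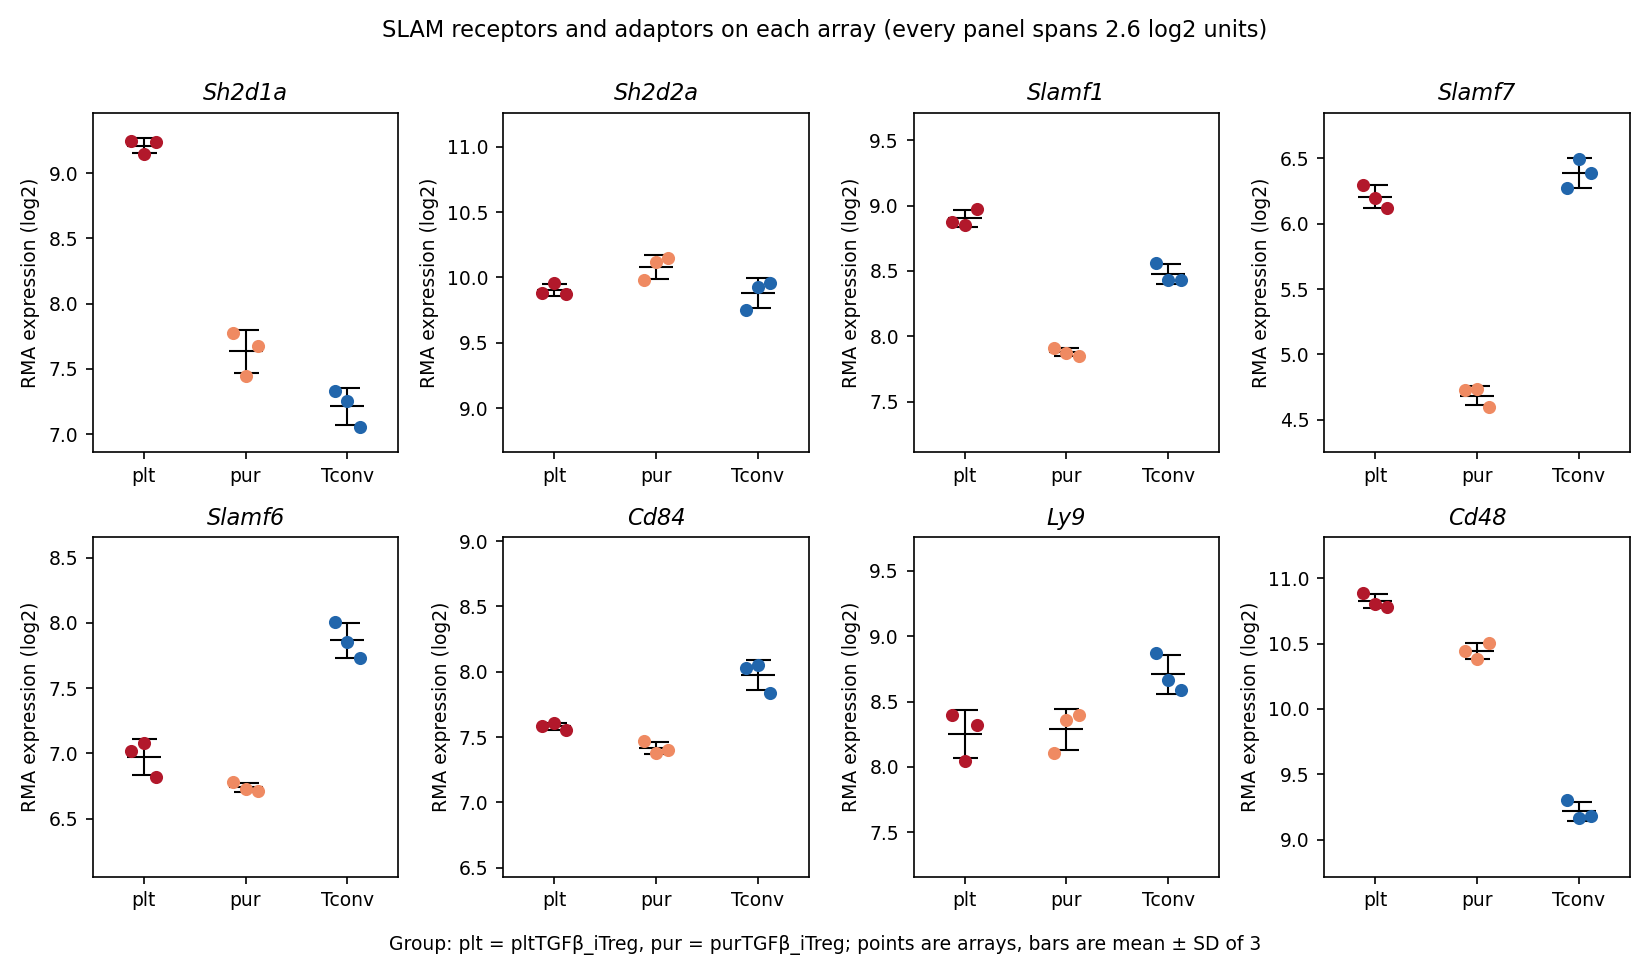
RMA log2 expression of each gene's main probe set on the 9 arrays, with groups on the x axis and mean ± SD of 3 arrays as bars; every panel spans the same range of log2 units. Sh2d1a stands at 9.14 to 9.25 on the pltTGFβ_iTreg arrays, above all others, Slamf7 at 4.60 to 4.73 on the purTGFβ_iTreg arrays, below all others, and Cd48 is lowest on the Tconv arrays.

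**Figure D2:**
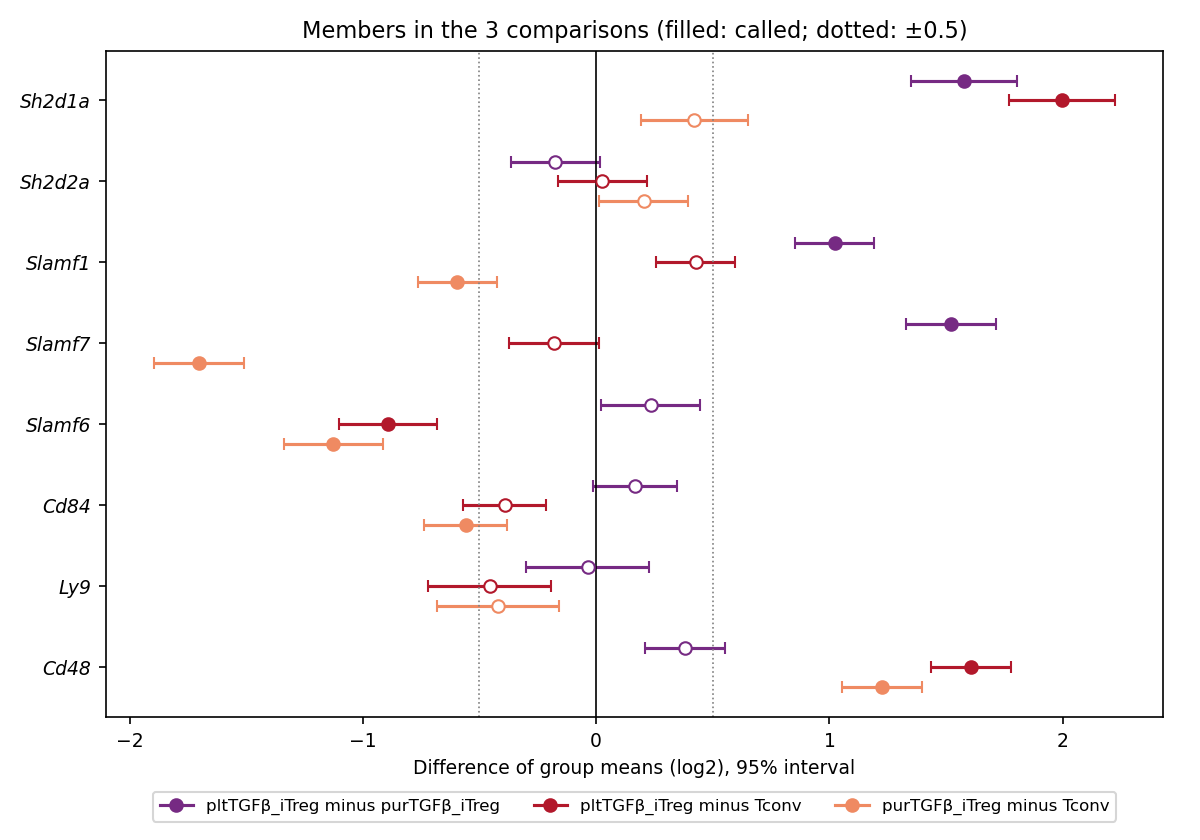
Differences of group means (log2, x axis) for the 8 genes in the 3 comparisons, with 95% intervals; filled points were called and dotted lines mark ±0.5. Sh2d1a, Slamf1 and Slamf7 lie beyond 0.5 in pltTGFβ_iTreg minus purTGFβ_iTreg, and the intervals of the 5 others lie below 0.56 there.

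Sh2d1a, the SAP gene (probe set 1449393_at), read 9.25, 9.14 and 9.24 on the pltTGFβ_iTreg arrays, 7.77, 7.45 and 7.68 on the purTGFβ_iTreg arrays and 7.33, 7.25 and 7.06 on the Tconv arrays. The lysate group stood far above the other groups, which lay close together without overlapping. The difference was 1.58 ± 0.10 (SE, adjusted p = 3.76e-06) against purTGFβ_iTreg and 2.00 ± 0.10 (adjusted p = 4.81e-08) against Tconv, and only 1.46% of genes differed more from Tconv. Between purTGFβ_iTreg and Tconv it was 0.42 ± 0.10 (adjusted p = 0.00612), under the size cutoff, and became 0.51 (adjusted p = 0.00259) and was called without purTGFβ_iTreg replicate 2. After quantile normalization of the deposited values it was 0.17 (adjusted p = 0.244).

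Sh2d2a, the TSAd gene (1449105_at), hardly differed. It read 9.88, 9.96 and 9.87 on the pltTGFβ_iTreg arrays, 9.98, 10.12 and 10.15 on the purTGFβ_iTreg arrays and 9.75, 9.93 and 9.96 on the Tconv arrays. The lysate and Tconv arrays overlapped, and every purTGFβ_iTreg array lay above them by a small margin. Sh2d2a was called in no comparison. The 95% intervals ran from -0.37 to 0.01 for pltTGFβ_iTreg minus purTGFβ_iTreg and from -0.16 to 0.22 for pltTGFβ_iTreg minus Tconv. For purTGFβ_iTreg minus Tconv the difference was 0.20 (95% interval 0.01 to 0.39, adjusted p = 0.0747), and only the size cutoff kept it from a call. The 2 adaptor genes therefore gave unlike readings with lysate, a contrast that was not itself tested.

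Slamf1, the founding receptor of the family (CD150, probe set 1425570_at), read 8.88, 8.86 and 8.97 on the pltTGFβ_iTreg arrays, 7.91, 7.87 and 7.85 on the purTGFβ_iTreg arrays and 8.56, 8.43 and 8.43 on the Tconv arrays. No group overlapped another, and Tconv lay between the iTreg groups. Lysate exceeded purified TGFβ1 by 1.02 ± 0.08 (SE, adjusted p = 1.13e-05). Against Tconv, purTGFβ_iTreg was lower by 0.60 (log2 difference -0.60 ± 0.08, adjusted p = 6.03e-05) and pltTGFβ_iTreg differed by 0.43 ± 0.08 (adjusted p = 8.14e-04), under the size cutoff, and by 0.28 after quantile normalization.

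The 2 dimmer Slamf1 probe sets bore out the gap between the iTreg groups and placed Tconv differently. In pltTGFβ_iTreg minus purTGFβ_iTreg they gave 1.12 (adjusted p = 2.76e-05) and 0.85 (adjusted p = 3.31e-04), both called higher. In pltTGFβ_iTreg minus Tconv they gave 0.83 and 0.76, also called higher, and in purTGFβ_iTreg minus Tconv -0.29 and -0.09, neither called. With the mean of all Slamf1 probe sets, the differences from Tconv were 0.67 for pltTGFβ_iTreg, now called, and -0.33 for purTGFβ_iTreg, no longer called. Which group stood apart from Tconv thus depended on the probe set, while lysate above purified TGFβ1 did not.

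Slamf7, the receptor also known as CRACC or CS1 (1453472_a_at), read 6.30, 6.20 and 6.12 on the pltTGFβ_iTreg arrays, 4.72, 4.73 and 4.60 on the purTGFβ_iTreg arrays and 6.27, 6.50 and 6.39 on the Tconv arrays. The purified-TGFβ1 group stood alone at the low end, and the lysate and Tconv arrays overlapped. Lysate exceeded purified TGFβ1 by 1.52 ± 0.09 (SE, adjusted p = 1.48e-06). Against Tconv, purTGFβ_iTreg gave -1.70 ± 0.09 (adjusted p = 3.71e-08), a difference exceeded in size by 3.38% of genes. In pltTGFβ_iTreg minus Tconv the difference was -0.18 (95% interval -0.37 to 0.01, adjusted p = 0.118), and after quantile normalization -0.37 (adjusted p = 0.0030), still under the size cutoff. The gene has a single probe set here, so no second reading was at hand.

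Slamf6, the receptor Ly108 of mice (1425086_a_at), read 7.02, 7.08 and 6.82 on the pltTGFβ_iTreg arrays, 6.78, 6.73 and 6.71 on the purTGFβ_iTreg arrays and 8.01, 7.86 and 7.73 on the Tconv arrays. Both iTreg groups lay below every Tconv array. The differences from Tconv were -0.89 ± 0.10 (SE, adjusted p = 1.42e-05) for pltTGFβ_iTreg and -1.13 ± 0.10 (adjusted p = 1.90e-06) for purTGFβ_iTreg. A second probe set was also called lower in both, at -0.67 and -0.83, and the dimmest in neither, at -0.27 and -0.09. Between the iTreg groups the difference was 0.23 (95% interval 0.02 to 0.44, adjusted p = 0.258).

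Cd84, a receptor that binds itself between T and B cells (1422875_at), read 7.59, 7.61 and 7.55 on the pltTGFβ_iTreg arrays, 7.47, 7.38 and 7.40 on the purTGFβ_iTreg arrays and 8.03, 8.05 and 7.84 on the Tconv arrays. Tconv was the highest group and no groups overlapped. The difference from Tconv was -0.56 ± 0.08 (SE, adjusted p = 1.56e-04) for purTGFβ_iTreg, which was called, and -0.39 ± 0.08 (adjusted p = 0.00214) for pltTGFβ_iTreg, which was not. A dimmer Cd84 probe set was called in neither (0.17 for pltTGFβ_iTreg and -0.12 for purTGFβ_iTreg), and with the mean of both probe sets the purTGFβ_iTreg call was lost (-0.34). The iTreg groups differed by 0.17 (95% interval -0.01 to 0.35).

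Ly9, the receptor CD229 (1449156_at), read 8.40, 8.04 and 8.32 on the pltTGFβ_iTreg arrays, 8.11, 8.36 and 8.40 on the purTGFβ_iTreg arrays and 8.87, 8.66 and 8.59 on the Tconv arrays. The iTreg groups overlapped each other and lay below Tconv. The differences from Tconv were -0.46 ± 0.12 (SE, adjusted p = 0.00882) for pltTGFβ_iTreg and -0.42 ± 0.12 (adjusted p = 0.0134) for purTGFβ_iTreg, both under the size cutoff. The pltTGFβ_iTreg difference passed it without pltTGFβ_iTreg replicate 1 (-0.53) or without Tconv replicate 3 (-0.52). Its arrays spread widely for these genes, with SDs of 0.186 in pltTGFβ_iTreg, 0.158 in purTGFβ_iTreg and 0.148 in Tconv.

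Cd48, the ligand of CD2 in mice and of CD244 (1427301_at), read 10.88, 10.80 and 10.78 on the pltTGFβ_iTreg arrays, 10.44, 10.38 and 10.51 on the purTGFβ_iTreg arrays and 9.30, 9.17 and 9.18 on the Tconv arrays. Every iTreg array lay above every Tconv array, and the iTreg groups did not overlap. The differences from Tconv were 1.61 ± 0.08 (SE, adjusted p = 3.02e-08) for pltTGFβ_iTreg and 1.23 ± 0.08 (adjusted p = 1.79e-07) for purTGFβ_iTreg. It was called higher in both comparisons, in each of the alternatives run. Between the iTreg groups the difference was 0.38 (95% interval 0.21 to 0.55).

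Over all 13 probe sets of the 8 genes, 5 were called higher and 0 lower in pltTGFβ_iTreg against purTGFβ_iTreg, where 3.25% of the 45037 probe sets were called (1.16% higher, 2.09% lower). In pltTGFβ_iTreg against Tconv 4 were higher and 2 lower, beside 25.3% of all probe sets (15% higher, 10.3% lower). In purTGFβ_iTreg against Tconv 1 was higher and 5 lower, beside 25.8% of all probe sets (15.5% higher, 10.4% lower). Probe sets of 1 gene share its RNA and are not separate evidence.

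**Figure D3:**
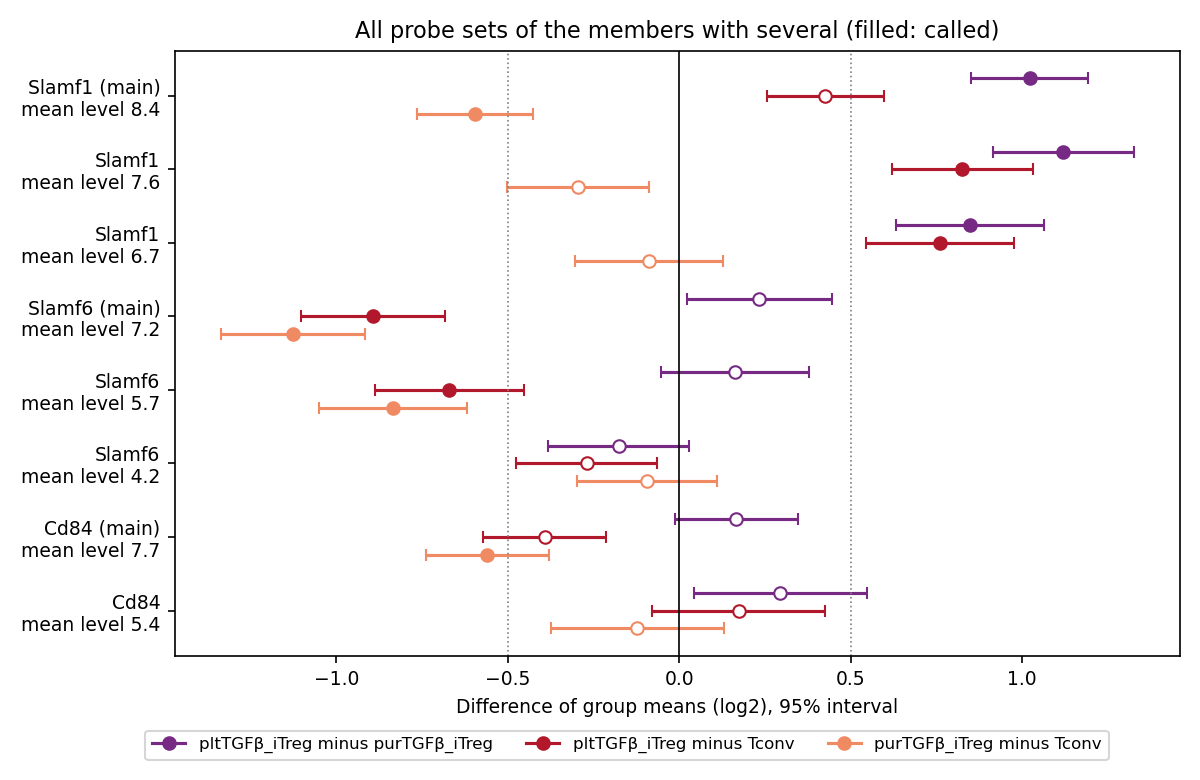
Differences of group means (log2, x axis, 95% intervals) for every probe set of the 3 genes that have several, with the mean level of each over the 9 arrays beside its name and filled points for calls. All 3 Slamf1 probe sets lie above 0.5 in pltTGFβ_iTreg minus purTGFβ_iTreg, and the dimmest Slamf6 and Cd84 probe sets show no call.

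Read along chromosome 1, genes of the cluster did not move as a block. Slamf7, called lower in purTGFβ_iTreg than in Tconv, lies next to Cd48, called higher in the same comparison, and the next measured gene after Cd48 is Slamf1, called lower on its main probe set. The gene Tma7-ps lies between Cd48 and Slamf1 and has no named probe set. Cd84 and Slamf6, at the far end, were both called lower there. Cd244a, which encodes the CD48 receptor 2B4 and flanks Ly9 at the other end of the cluster, read 3.23 in pltTGFβ_iTreg, 3.13 in purTGFβ_iTreg and 3.40 in Tconv on average and was called in no comparison. The 6 clustered genes therefore fell into different patterns: highest with lysate (Slamf1), lowest with purified TGFβ1 (Slamf7), highest in Tconv (Slamf6, and by smaller margins Cd84 and Ly9) and lowest in Tconv (Cd48).

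**Figure D4:**
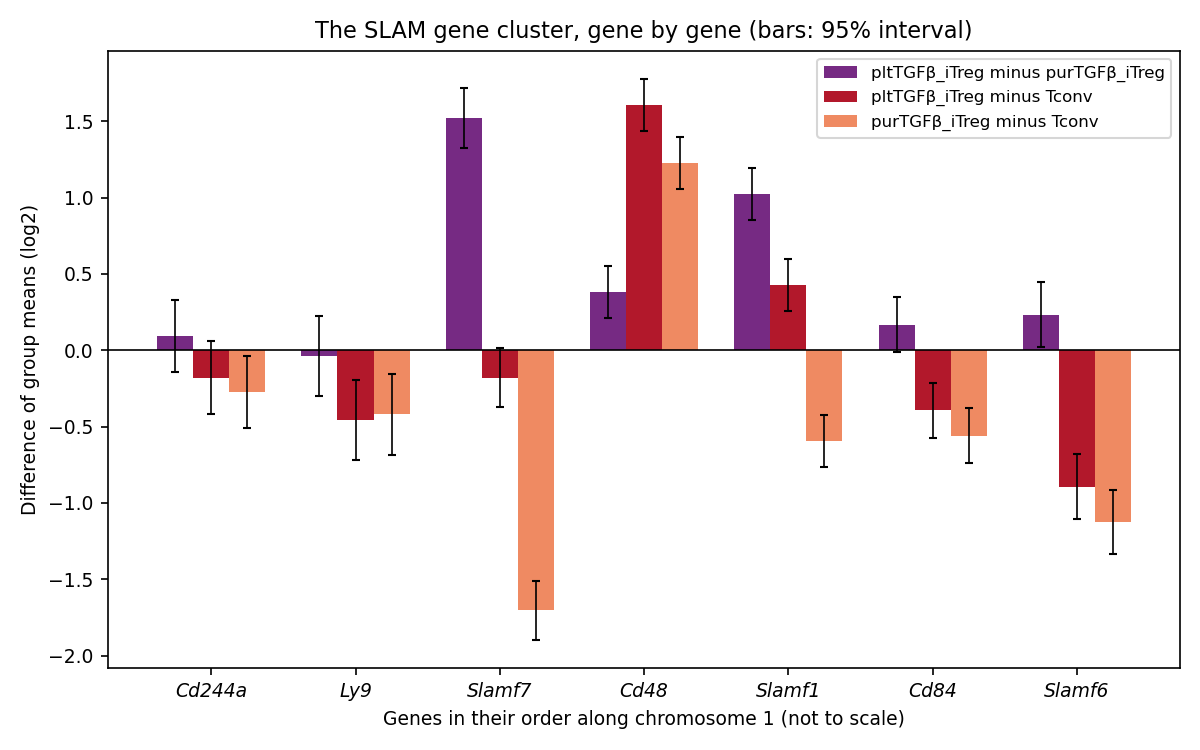
Differences of group means (log2, y axis) for the measured genes of the SLAM cluster in their order along chromosome 1, with bars for the 3 comparisons and 95% intervals. Cd48 stands above 0 in all 3 comparisons between Slamf7, at -1.70 in purTGFβ_iTreg minus Tconv, and Slamf1, at -0.60.

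The genes closest in pattern were sought among 11954 others, by the root mean square difference of log2 values centred on each gene's mean over the 9 arrays. For Sh2d1a they were Epcam (0.243), Il1a (0.294) and Spin4 (0.30), none of them very near. For Slamf1 they were Spry1 (0.104), Rel (0.108) and Man1a (0.112), and for Slamf7 Tgm2 (0.117), Slfn2 (0.147) and Cd200 (0.156). Slamf6 ran closest to Smim26 (0.0781), Gabpb1 and Spata5l1, Cd84 to Pstk (0.0389), Acsf2 and Nop10, and Ly9 to Dscam (0.0693), Ltbp4 and Zfp532. Cd48 ran closest to Syncrip (0.0679), Hnrnpdl and Mphosph10, and Sh2d2a to Selplg (0.0383), Pnp and Dbnl. No gene of the group was among the 3 nearest of another. The 9 points of each pattern are 3 groups of 3 arrays and share their normalization.

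Other family members and ligands were few on the array with a name. Slamf9, a family member best known from myeloid cells, was called lower in every comparison: it averaged 5.37 in pltTGFβ_iTreg, 6.22 in purTGFβ_iTreg and 7.07 in Tconv. The difference was -0.85 (adjusted p = 0.00195) between the iTreg groups, -1.70 (adjusted p = 7.04e-07) for pltTGFβ_iTreg against Tconv and -0.85 (adjusted p = 1.81e-04) for purTGFβ_iTreg against Tconv. Cd2, a receptor of CD48 on T cells, averaged 11.49 in pltTGFβ_iTreg, 11.32 in purTGFβ_iTreg and 10.98 in Tconv, and was called higher only in pltTGFβ_iTreg against Tconv (0.52, adjusted p = 2.46e-04). Slamf8 read 2.89 to 3.04 on average in the 3 groups and was not called.

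Of all genes, 4.11% were called in pltTGFβ_iTreg against purTGFβ_iTreg. Of 16 measured genes of SLAM and SAP signalling, none was called higher there and 1 lower, with a median of 0.02. That gene was Dok1, an adaptor that docks negative regulators (-0.51, adjusted p = 0.00558). Fyn, the kinase that SAP recruits, differed by 0.04 there, and Prkcq, which encodes the protein kinase Cθ downstream of it, by 0.06. Dgka (-0.34), Malt1 (0.27) and Dok2 (0.35) were not called there. Against Tconv, 3 were higher and 3 lower in pltTGFβ_iTreg (median -0.08), and 3 higher and 1 lower in purTGFβ_iTreg (median -0.06). These counts stood beside 28.5% and 29.3% of all genes called in the same groups. Nck1, an adaptor of the actin machinery, was higher by 1.38 in pltTGFβ_iTreg and 1.48 in purTGFβ_iTreg, and Rasa1, a brake on Ras, by 1.66 and 1.60 in the same groups. The other Nck1 probe sets were not called (0.42 to 0.44 over both groups), and those of Rasa1 were. Malt1, a protease on the way to NF-κB, was called higher in pltTGFβ_iTreg (0.75) and differed by 0.48 in purTGFβ_iTreg, under the size cutoff. A dimmer Malt1 probe set was called higher in both groups (0.96 and 0.54), and another in neither (0.48 and 0.35). Dgka, a diacylglycerol kinase that SAP inhibits, was called higher in purTGFβ_iTreg (0.75) and differed by 0.41 in pltTGFβ_iTreg, under the size cutoff. Dok2, related to Dok1, was lower in both, with differences of -0.63 in pltTGFβ_iTreg and -0.98 in purTGFβ_iTreg. Dok1 (-0.73, adjusted p = 3.75e-05) and Csk, the kinase that restrains Src-family kinases (-0.59), were called lower in pltTGFβ_iTreg. A dimmer Fyn probe set differed from Tconv by 0.78 in pltTGFβ_iTreg and 0.80 in purTGFβ_iTreg, while the main one gave 0.19 and 0.15.

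Among 4 measured partners of TSAd, none was called between the iTreg groups (median -0.31), beside 4.11% of all genes. Txk and Plcg1 each stood at -0.45 there, while the other, dimmer Plcg1 probe sets gave 0.22 and 0.11 and were not called. Txk, a Tec-family kinase, was called higher against Tconv in pltTGFβ_iTreg (1.75, adjusted p = 2.62e-08) and in purTGFβ_iTreg (2.20, adjusted p = 4.02e-09). Plcg1, the phospholipase that T cell receptor signals activate, was called lower against Tconv in pltTGFβ_iTreg (-0.55, adjusted p = 1.34e-04). Its other probe sets gave 0.01 and -0.01 in that comparison. Grb2 and Lat were called in no comparison.

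SAP is best known in follicular helper and NKT cells, and the 14 genes listed for those cells went both ways. In pltTGFβ_iTreg against purTGFβ_iTreg, 4 were higher and 2 lower (median 0.16), beside 4.11% of all genes called. Cd200, which like Slamf7 was lowest with purified TGFβ1, was higher by 1.38 (adjusted p = 5.17e-06). The costimulator Icos was higher by 0.84 and Egr2, a factor induced by T cell receptor signals, by 0.54. The cytokine gene Il4 was higher by 0.56 at a low level. It averaged 4.40 in pltTGFβ_iTreg and 3.85 in purTGFβ_iTreg, below the medians of those arrays. Maf, a transcription factor of several helper lineages, differed by -1.36 (adjusted p = 2.65e-06), and Bcl6, the master factor of follicular helper cells, by -0.64 (adjusted p = 2.86e-04). Against Tconv, 3 were higher and 1 lower in pltTGFβ_iTreg (median -0.31), and 3 higher and 4 lower in purTGFβ_iTreg (median -0.21). The shares of all genes called were 28.5% and 29.3% in the same groups. Maf was higher by 5.12 in pltTGFβ_iTreg and 6.48 in purTGFβ_iTreg, and in the same order Icos by 2.08 and 1.24 and the inhibitory receptor gene Pdcd1 by 0.81 and 0.62. Il4 was lower in both, with differences of -2.49 (adjusted p = 2.89e-09) in pltTGFβ_iTreg and -3.04 (adjusted p = 3.30e-10) in purTGFβ_iTreg. Cd200 was called lower in purTGFβ_iTreg (-1.71, adjusted p = 6.32e-08) and read -0.33 in pltTGFβ_iTreg, not called. Cxcr5, the follicle-homing receptor (-0.78), and Cd40lg, the ligand that helps B cells (-0.52), were also called lower in purTGFβ_iTreg. Zbtb16, which encodes the NKT factor PLZF, and Il21 were called in no comparison. A second, dimmer Bcl6 probe set gave -0.17 between the iTreg groups and was not called, nor was a second Egr2 probe set at 0.47. The other Maf probe sets gave smaller differences from Tconv, 0.06 to 2.54 in pltTGFβ_iTreg and 0.47 to 4.21 in purTGFβ_iTreg. The Maf probe set at 0.06 and 0.47 was not called against Tconv, nor between the iTreg groups (-0.41).

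**Figure D5:**
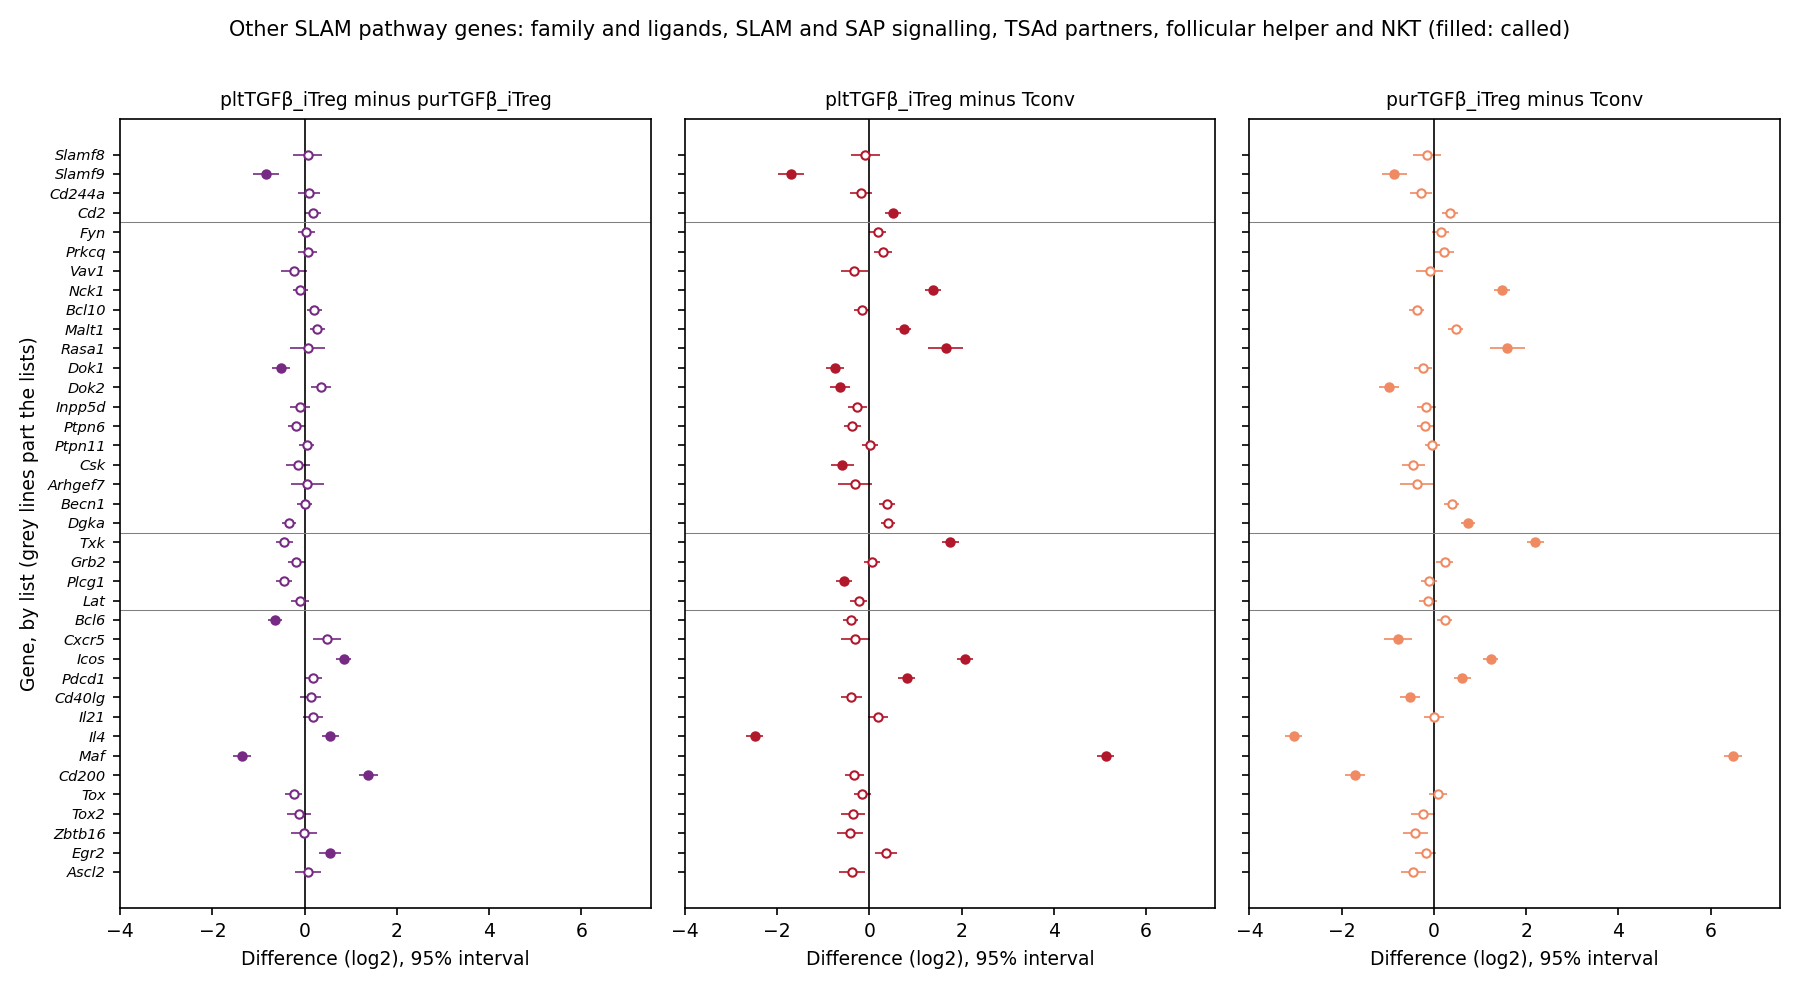
Differences of group means (log2, x axis, 95% intervals) for the other genes of the pathway, grouped by list down the page, with 1 panel per comparison and filled points for calls. In pltTGFβ_iTreg minus purTGFβ_iTreg the signalling genes sit between -0.51 and 0.35, while Cd200 lies at 1.38 and Maf at -1.36.

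Several SLAM receptors are also found on B cells, myeloid cells, NK cells and platelets, so markers of these cells were set beside the results. Between the iTreg groups, 0 of 8 B cell and 0 of 9 myeloid markers were called, beside 4.11% of all genes. List means of B cell markers were 3.70 to 3.86 in pltTGFβ_iTreg, 3.69 to 3.85 in purTGFβ_iTreg and 4.07 to 4.12 in Tconv. Those of myeloid markers were 4.26 to 4.36, 4.21 to 4.36 and 4.54 to 4.67 in the same groups. Of 6 CD8 or NK markers, Eomes was called higher with lysate (1.38) and Klrd1 lower (-1.27), and the list means were 5.32 to 5.39 in pltTGFβ_iTreg, 5.28 to 5.43 in purTGFβ_iTreg and 5.26 to 5.27 in Tconv. Of 8 platelet markers, Itgb3, an integrin gene that activated T cells also use, was higher with lysate by 1.75, and the list means were 4.63 to 4.75 in pltTGFβ_iTreg, 4.40 to 4.53 in purTGFβ_iTreg and 5.12 to 5.24 in Tconv. The platelet chemokine genes Pf4 and Ppbp averaged 3.30 and 2.70 in pltTGFβ_iTreg, 3.05 and 2.46 in purTGFβ_iTreg and 3.32 and 2.76 in Tconv, and neither was called between the iTreg groups. Against Tconv, 28.5% of all genes were called in pltTGFβ_iTreg and 29.3% in purTGFβ_iTreg. In each of these comparisons 1 B cell and 1 myeloid marker were called, both lower (Cd79b and Cst3). Of the CD8 or NK markers, Klrd1 was higher by 1.9 in pltTGFβ_iTreg and 3.17 in purTGFβ_iTreg, Cd8b1 was lower (-1.04 and -0.98 in the same groups) and Eomes was lower in purTGFβ_iTreg (-1.31). Of the platelet markers, Itgb3 (-1.27 and -3.01) and Itga2b (-0.61 and -0.63) were lower in both, and Gp6 (-0.55) in pltTGFβ_iTreg. Eomes and Itgb3 were thus lowest with purified TGFβ1, as Slamf7 was, while Klrd1 was highest with it. No other CD8, NK or platelet marker was called between the iTreg groups. The part of CD8 or NK cells and of platelet material in the SLAM results was not tested.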

How the data were processed

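RNA of 9 samples was hybridised to Affymetrix expression arrays. The authors deposited log2 expression values, made by RMA with the Affymetrix Expression Console software, according to the design text of the series. The deposited values still differ in distribution between iTreg and Tconv arrays, which moves comparisons with Tconv when they are quantile normalized again. The authors tested with ANOVA in Partek Genomics Suite 6.6 at a 1.4-fold difference and a false discovery rate under 10%, per the same text. The table holds no detection calls, and the number of arrays limits the precision.

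After 64 control probe sets were left out, 45037 were fitted in 1 limma model (limma 3.58.1, R 4.3.3) with a mean per group over all 9 arrays. The tests were two-sided with Benjamini-Hochberg adjustment over all probe sets, and calls used the authors' cutoffs (0.1 and 0.5 on the log2 scale). Single-gene permutation was not used, because 3 arrays a group allow no p under 0.1. The arrays are called biological replicates in the series' design text. Symbols came from the platform annotation: 34945 probe sets had 1, 932 several and 9160 none. The main probe set was the one with the highest mean, cross-hybridising ones only where a gene had no other. List genes with no named probe set were not analysed here. All 8 genes and, from each pathway list, the 4 genes with the lowest adjusted p per comparison were named, with the SLAM family list whole, the 3 nearest patterns of each gene and sex-linked genes as a check. Foxp3, Fyn, Prkcq, Csk, Cxcr5, Cd40lg, Egr2, Zbtb16, Il21 and the markers named were chosen after their values were seen, and so was Il4 between the iTreg groups. The genes and lists were chosen with earlier results of these data known. Replicate numbers paired the arrays in 2 of 9 pairs by the rule used (correlation of deviations over 0.1, with a range of -0.12 to 0.26), so no block was used in the main fit. Both were pairs of pltTGFβ_iTreg with purTGFβ_iTreg (0.19 and 0.26), and the remaining pair of these groups gave 0.09. A fit with a replicate block is among the alternatives. The fit was tested on simulated data. Figures were drawn with Python 3.11.15 and matplotlib 3.10.9.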

Additional observations from a re-analysis of the deposited data

Results flagged for a closer look

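The signed log2 change from Tconv differed between the iTreg groups for 3 of the 8 genes, beside 4.11% of all genes. The test is that of pltTGFβ_iTreg against purTGFβ_iTreg given above, in which the shared Tconv arrays cancel. For Slamf1 the main probe set lay above Tconv with lysate (0.43) and below it with purified TGFβ1 (-0.60). The gap between pltTGFβ_iTreg and purTGFβ_iTreg was 1.58 for Sh2d1a, 1.52 for Slamf7 and 1.02 for Slamf1 on the log2 scale, higher with lysate on all 3 arrays of the group in each case. Their adjusted p-values in the limma fit were 3.76e-06, 1.48e-06 and 1.13e-05, and ranged from 8.11e-08 to 0.00153, from 2.63e-07 to 6.15e-04 and from 3.56e-07 to 5.79e-04 over the alternatives.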

How the results depend on the processing

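The calls of Sh2d1a, Slamf1 and Slamf7 between the iTreg groups held in all 20 alternatives, with 3 genes called in each but the setting with no fold cutoff, which called 4 (9.72% of all genes). Several alternatives, such as the replicate block or a Tconv array left out, kept these differences and changed only their tests. Dropping the fold cutoff can only add calls. For pltTGFβ_iTreg against Tconv, 3 were called, against 5 after quantile normalization and 6 with no fold cutoff, beside 28.5%, 31.2% and 60.4% of all genes. At an adjusted p under 0.05 and a difference over 1, 2 were called for it, beside 10.1% of all genes, as Slamf6 fell short. For purTGFβ_iTreg against Tconv, 5 were called, against 3 with probe sets averaged per gene, 3 at an adjusted p under 0.05 and a difference over 1, and 8 with no fold cutoff, beside 29.3%, 25.2%, 11.2% and 63.4% of all genes. Leaving out 1 array gave 3 to 3, 3 to 4 and 5 to 6 calls in the same order. With the replicate number as a block the counts were 3, 3 and 5, and no call changed. Over single genes, 456 values kept their direction and call, 14 gained a call, 5 lost one and 5 turned sign. The turns were of values near 0: Sh2d2a in pltTGFβ_iTreg minus Tconv, 0.03, became -0.0215 after quantile normalization and lay between -0.0384 and 0.0679 with 1 array left out, and Ly9 in pltTGFβ_iTreg minus purTGFβ_iTreg, -0.04, lay between -0.126 and 0.0692 with 1 array left out. The changes with the cutoffs follow from the cutoffs, and the cause of the others was not tested. Without detection calls, whether Slamf7 in purTGFβ_iTreg, Il4 in the iTreg groups or the dimmer probe sets read above background is not settled.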
